A study of Mus musculus with 4 samples.

Results

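Homeostatic microglia genes are the genes by which resting microglia of the healthy brain are recognized. A set of 9 such genes, *P2ry12*, *P2ry13*, *Tmem119*, *Cx3cr1*, *Csf1r*, *Siglech*, *Gpr34*, *Sall1* and *Aif1*, was taken by name from the 23420 gene symbols counted in each sample, and all 9 were among the 16232 genes with enough counts to be tested. The samples were bulk total RNA from prefrontal cortex (PFC) of C57BL6/J mice, with 2 control samples and 2 *Ash1L* shRNA samples, described here one by one. *Ash1L* (gene symbol *Ash1l*) encodes a histone methyltransferase. Mice of both groups received AAV9 into the medial PFC on both sides. The treated mice received a GFP-tagged vector with a short hairpin RNA against *Ash1L* under the U6 promoter, which is active in any infected cell, and the control mice received a virus that the labels call GFP-AAV9 and the methods call scrambled shRNA AAV. Per the methods, male and female wild-type mice were injected at 5 weeks of age, PFC punches with GFP fluorescence were taken, and each sample pooled the tissue of 3 mice. The design text instead names 3 *Ash1L* shRNA mice and 2 GFP-injected mice aged 6 to 8 weeks. A punch holds every cell type of the tissue, so in these data fewer microglia and less RNA per microglial cell cannot be told apart.

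Microglia are the resident macrophages of the brain. They arise from the yolk sac, renew themselves locally, and depend on signals from neurons and astrocytes, among them CSF1, IL34, CX3CL1 and TGF-beta. In the resting state they survey the tissue with fine processes, prune synapses and carry receptors for nucleotides, chemokines and lipids, and this receptor set is typically lost when they become activated.

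Promoter sequence is shown for the 3 genes whose promoter window held the motif described next and, for comparison, for *P2ry12*, in which no such match was found. Each stretch runs from 100 bases before to 20 bases after the start of transcription as RefSeq gives it on GRCm38.p6. Capitals mark the motif GAGGAA, called the ETS motif below, or its reverse complement. PU.1, the ETS factor that myeloid cells require, binds motifs with these letters. The shorter core GGAA that ETS factors share is not marked, and the *P2ry12* stretch holds it. *P2ry12* lies at chr3:59262966-59263085 and *P2ry13* at chr3:59210863-59210982, both on the minus strand. *Siglech* lies at chr7:55768084-55768203 on the plus strand and *Aif1* at chr17:35176033-35176152 on the minus strand.
P2ry12: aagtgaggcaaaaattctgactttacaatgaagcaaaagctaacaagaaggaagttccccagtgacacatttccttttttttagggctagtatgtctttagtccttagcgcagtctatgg
P2ry13: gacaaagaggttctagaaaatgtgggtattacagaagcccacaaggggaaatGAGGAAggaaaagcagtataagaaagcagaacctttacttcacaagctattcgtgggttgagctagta
Siglech: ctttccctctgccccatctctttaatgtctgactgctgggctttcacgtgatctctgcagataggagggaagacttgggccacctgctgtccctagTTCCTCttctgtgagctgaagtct
Aif1: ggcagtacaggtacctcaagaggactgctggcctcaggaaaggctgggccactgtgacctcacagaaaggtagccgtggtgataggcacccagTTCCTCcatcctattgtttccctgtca

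The search covered 8 promoter windows, from 250 bases before to 50 bases after the start, of 6 of the 9 genes. *Csf1r* was left out of the search, and the RefSeq table used here held no window for *Tmem119* and *Gpr34*. Both strands of each window were searched. The ETS motif GAGGAA was found in 3 genes, at bases -48 to -43 in *P2ry13*, -4 to 2 in *Siglech* and -7 to -2 in *Aif1*. Bases are counted from the start of transcription with no base 0. This motif was present in 28.3% of all 32817 mouse promoter windows of the same length. The longer PU.1 motif GAGGAAGT, which contains GAGGAA, was in none of the 6 genes and in 3.2% of all windows. The IRF motif GAAANNGAA was in *Aif1* at bases -157 to -149 and in 8.55% of all windows. The C/EBP motif TTGCNNAA was in *P2ry12* at bases -204 to -197, in *Siglech* at bases -169 to -162 and in 10.8% of all windows, and the AP-1 motif TGANTCA was in none of the 6 and in 7.81% of all windows. These matches describe letters in a window and are not measured binding sites.

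The samples held 14251190 and 35764874 counts (controls 1 and 2) and 27479339 and 20106708 counts (*Ash1L* shRNA samples 1 and 2). Counts are given below after scaling by the trimmed mean of M values (TMM) to a common library size. The targeted gene *Ash1l* had 5961 and 7057 scaled counts in the controls and 5246 and 3345 in *Ash1L* shRNA samples 1 and 2, which is 80.6% and 51.4% of the control mean. Both shRNA samples lay below both controls, and sample 2 lay lowest. Markers of other cells in the punches differed as well. The summed level of 10 lymphocyte genes was 17.3 and 30.3 CPM (the usual scaling of counts to library size) in the controls and 5.18 and 3.76 CPM in the shRNA samples. *Cd79a*, the B cell receptor chain, had 53.4 and 56.9 scaled counts in the controls and 6.22 and 5.87 in the shRNA samples. The 8 astrocyte markers had medians of -0.54 and -0.94 on the log2 scale in shRNA samples 1 and 2, each against the control mean. The part of these differences in the microglial values was not tested.

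The smallest raw count of any of the 9 genes in any sample was 146, for *Gpr34* in shRNA sample 2. Counting error was small beside the differences between the shRNA samples. Beside those between the controls it was not small in several genes. Among them was *P2ry12*, with an exact 95% interval of 0.893 to 1.06 for the ratio of control 2 to control 1. Levels were compared between genes as CPM per kilobase of exon (RPKM), and they covered a wide range. *Csf1r* stood highest, at 32.8 and 37.6 RPKM in the controls and 34.7 and 16.1 RPKM in shRNA samples 1 and 2. *Cx3cr1* followed at 21.4, 20.5, 28.0 and 11.7 RPKM in the same order of samples, then *P2ry12* at 20.6, 20.01, 20.6 and 8.45 RPKM and *Tmem119* at 18.1, 17.1, 17.5 and 11.1 RPKM. The lowest level was that of *Sall1*, at 3.07, 3.03, 3.27 and 1.91 RPKM. In the controls *Aif1*, *Gpr34*, *Siglech* and *P2ry13* all lay between 7.29 and 10.8 RPKM, and each overlapped the next in that order. The control ranges of *Cx3cr1* and *P2ry12* overlapped too, while *Csf1r*, *Tmem119* and *Sall1* stood clear of their neighbours.

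**Figure D1:**
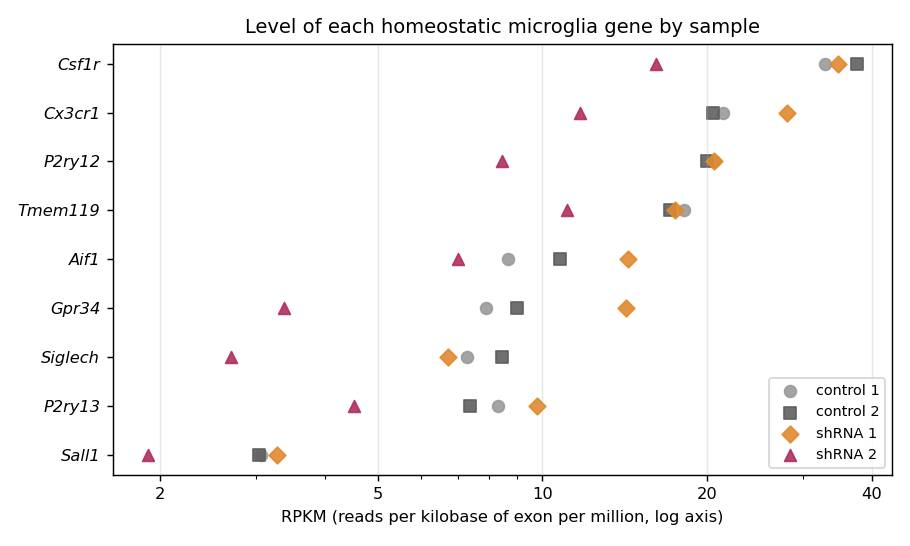
Level of each of the 9 genes in the 4 PFC samples, in RPKM on a log axis, with 1 symbol per sample and genes ordered by level. *Ash1L* shRNA sample 2 is the leftmost symbol in all 9 rows, and *Csf1r* is the highest gene in each sample.

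In the comparison of groups, 0 of the 9 genes passed the study's definition of a DOWN or UP gene, an unadjusted p under 0.05 with at least a 1.2-fold change. The test was the quasi-likelihood test of edgeR. The count at an unadjusted p under 0.05 alone was 0 as well, and DESeq2 also called 0. Over all genes tested, 8.28% were DOWN and 8.61% were UP. The log2 fold changes of the 9 ran from -0.73 in *Siglech* to 0.14 in *Aif1* with a median of -0.23, and the median of all genes tested was -0.00273. The samples behind these values were unlike each other. *Ash1L* shRNA sample 2 had the lowest scaled count of the 4 samples in all 9 genes, at 34.3% to 72.3% of the control mean. *Ash1L* shRNA sample 1 lay above both controls in 6 genes, though in *P2ry12* only at 1277 scaled counts against 1274 and 1239. Sample 1 lay between the controls in *Tmem119* and *Csf1r*, and below both only in *Siglech*. Its counts of the 9 genes were 85.5% to 169% of the control mean. The share of all genes with these orders was not computed. The median log2 fold change of the 9 was -0.84 without sample 1 and 0.11 without sample 2, so its sign rested on which shRNA sample was used. *Csf1r*, *Siglech* and *Tmem119* had negative log2 fold changes in either case. Without sample 2 they were -0.022, -0.23 and -0.0061, which is almost no change in *Csf1r* and *Tmem119*.

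Each shRNA sample was also set against both controls in a second edgeR fit, in which the shRNA samples were separate levels. This split was chosen with earlier results of these data known, so its calls are not independent of the pattern described above. The estimate of spread in this fit comes from the 2 control samples, and a single shRNA sample is assumed to vary as they do. The p-values of this fit therefore compare these pools of mice and not the conditions. Chi-square per degree of freedom, a measure of difference beyond counting error, was 15.3 between the controls and 44.5 between the shRNA samples. The standard errors and p-values of this fit thus rest on the more alike pair. The values of each gene follow, by role.

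**Figure D2:**
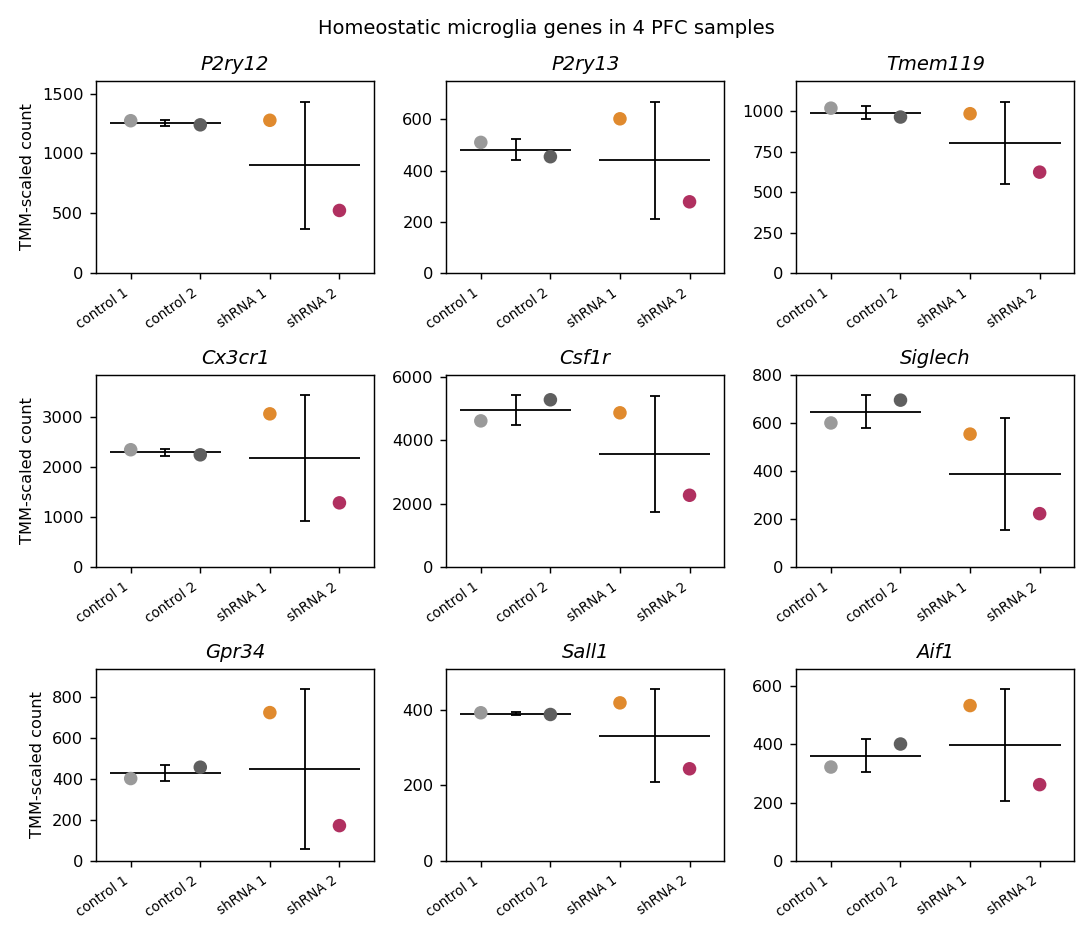
TMM-scaled counts of the 9 genes in control samples 1 and 2 and *Ash1L* shRNA samples 1 and 2, each point a sample, with horizontal lines at group means and bars of 1 SD (n = 2). The shRNA points are far apart in every panel, sample 2 is lowest throughout, and the control points are close together.

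*P2ry12* and *P2ry13* encode G protein-coupled receptors for ADP, and P2RY12 draws microglial processes to sites of injury. *P2ry12* (chr3:59216272-59262871 of mm10, minus strand) had 1274 and 1239 scaled counts in the controls and 1277 and 523 in *Ash1L* shRNA samples 1 and 2. Both controls and shRNA sample 1 were nearly equal and shRNA sample 2 stood apart below them. Group means were 1256 ± 24.3 and 900 ± 533 (SD, n = 2), with a log2 fold change of -0.48 (SE 0.40, edgeR adjusted p = 0.572). Taken alone, sample 2 was lower than the controls by a log2 fold change of -1.26 (SE 0.15, edgeR adjusted p = 0.00346), and the value for sample 1 was 0.02 (SE 0.14, adjusted p = 0.963).

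*P2ry13* (chr3:59207892-59210882, minus strand) had 510 and 454 scaled counts in the controls and 602 and 278 in the shRNA samples. The controls lay between the shRNA samples. The log2 fold change of the groups was -0.12 (SE 0.35, edgeR adjusted p = 0.881). The single-sample values were -0.79 for sample 2 (SE 0.18, adjusted p = 0.0285) and 0.33 for sample 1 (SE 0.17, adjusted p = 0.50). Both genes lie inside *Med12l* on the opposite strand, with 9 exon bases of *P2ry12* shared and 0 of *P2ry13*.

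*Gpr34* encodes a receptor for lysophosphatidylserine, a lipid exposed by damaged cells (chromosome X, 13632089 to 13640858, plus strand, within *Cask* on the opposite strand and with 0 exon bases shared). It had 402 and 457 scaled counts in the controls and 724 and 171 in the shRNA samples. It showed the widest gap between the shRNA samples of the 9, one at 169% and the other at 39.9% of the control mean. The group means, 429 ± 39.2 and 448 ± 391 (SD, n = 2), hid this gap, and the log2 fold change was 0.07 (SE 0.65, edgeR adjusted p = 0.969). Against the controls sample 2 had a log2 fold change of -1.33 (SE 0.20, adjusted p = 0.00689) and sample 1 had 0.75 (SE 0.17, unadjusted p = 0.00232, adjusted p = 0.189).

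*Cx3cr1* encodes the receptor for the neuronal chemokine CX3CL1 (chr9:119901616-120069879, minus strand). Its scaled counts were 2349 and 2247 in the controls and 3069 and 1284 in the shRNA samples. The controls differed little and lay between the shRNA samples. Group means were 2298 ± 72.2 and 2176 ± 1262 (SD, n = 2), with a log2 fold change of -0.08 (SE 0.40, edgeR adjusted p = 0.940). Sample 2 had a log2 fold change of -0.84 against the controls (SE 0.13, adjusted p = 0.00852), and sample 1 had 0.42 (SE 0.12, unadjusted p = 0.0100, adjusted p = 0.304).

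*Csf1r* encodes the receptor tyrosine kinase for CSF1 and IL34, on which the survival of microglia depends (chromosome 18 of mm10, 61100598 to 61132149, plus strand). It had 4614 and 5280 scaled counts in the controls and 4868 and 2263 in the shRNA samples. Sample 1 lay between the controls and sample 2 far below them. The log2 fold change of the groups was -0.47 (SE 0.36, edgeR adjusted p = 0.525). The single-sample values were -1.13 for sample 2 (SE 0.14, adjusted p = 0.00415) and -0.02 for sample 1 (SE 0.14, adjusted p = 0.963). Of its exon bases 873 (15.1%) are shared with the antisense gene *Hmgxb3*, and the strand setting of the counting is not given in the sources used here, so part of the count could belong to that gene.

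*Tmem119* encodes a transmembrane protein by which microglia are told from blood-derived macrophages (chr5:113793729-113800516, minus strand). It had 1020 and 965 scaled counts in the controls and 986 and 624 in the shRNA samples. Sample 1 lay between the controls, and sample 2 reached 62.9% of their mean. The log2 fold change of the groups was -0.30 (SE 0.22, edgeR adjusted p = 0.509). Alone, sample 2 differed by -0.67 (SE 0.15, adjusted p = 0.0264) and sample 1 by -0.01 (SE 0.14, adjusted p = 0.990).

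*Siglech* encodes a sialic acid-binding lectin that signals through the adaptor TYROBP (chr7:55768178-55778925, plus strand). Its scaled counts were 599.7 and 695 in the controls and 553 and 222 in the shRNA samples. It was the single gene of the 9 in which both shRNA samples lay below both controls, a pattern that 26.8% of all genes tested showed, while 0 of the 9 had both shRNA samples above both controls, against 26.5% of all genes. Group means were 647 ± 67.3 and 388 ± 234 (SD, n = 2), with the lowest log2 fold change of the 9, -0.73 (SE 0.41, edgeR adjusted p = 0.400). The single-sample values were -1.55 for sample 2 (SE 0.19, adjusted p = 0.00374) and -0.23 for sample 1 (SE 0.17, adjusted p = 0.641).

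*Sall1* encodes a zinc finger transcription factor that maintains microglial identity (chr8:89027235-89044162, minus strand). It had 393 and 388 scaled counts in the controls, 419 in shRNA sample 1 and 244 in sample 2. The controls were closest to each other here, at 391 ± 3.23 (SD, n = 2). The log2 fold change of the groups was -0.23 (SE 0.27, edgeR adjusted p = 0.679). Sample 2 had -0.68 against the controls (SE 0.19, adjusted p = 0.0498), just past the threshold of 0.05, and sample 1 had 0.10 (SE 0.18, adjusted p = 0.861).

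*Aif1* encodes the actin-binding protein IBA1, with which microglia are commonly stained (chr17:35170991-35176068, minus strand). Its scaled counts were 322 and 402 in the controls and 534 and 262 in the shRNA samples. It had the largest relative gap between the controls of the 9 genes, with control 2 at 1.25 times control 1. The log2 fold change of the groups was 0.14 (SE 0.34, edgeR adjusted p = 0.863). Sample 2 had -0.48 against the controls (SE 0.21, unadjusted p = 0.0513, adjusted p = 0.165) and sample 1 had 0.55 (SE 0.19, unadjusted p = 0.0222, adjusted p = 0.363).

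**Figure D3:**
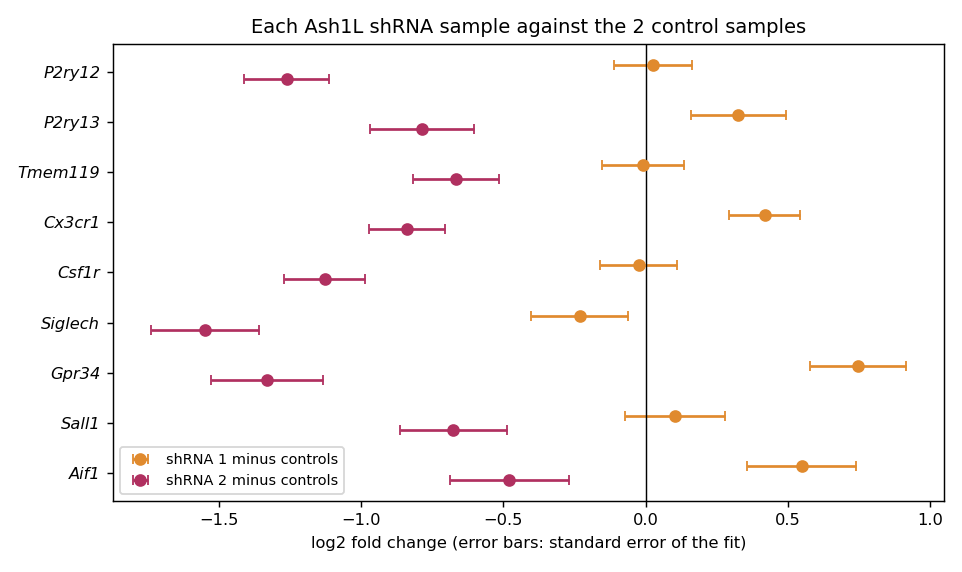
Log2 fold change of each *Ash1L* shRNA sample against the 2 controls for the 9 genes, with bars of 1 standard error from the edgeR fit. All 9 points of sample 2 lie left of 0, from -1.55 to -0.48, and those of sample 1 run from -0.23 to 0.75.

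In total, sample 2 against the controls gave 8 DOWN genes of the 9 and the same 8 passed an adjusted p of 0.05, all but *Aif1*, with a median log2 fold change of -0.84. DESeq2 gave 7 DOWN genes and 5 adjusted calls in this comparison. Over all genes tested in this comparison, 16.5% were DOWN and 7.88% were lower with an adjusted p under 0.05. Sample 1 against the controls gave 3 UP genes, *Cx3cr1*, *Gpr34* and *Aif1*, and 0 DOWN genes, with a median of 0.10, where 6.46% of all genes were UP and 4.98% DOWN. In that comparison 0 of the 9 and 0.136% of all genes passed the adjusted threshold in edgeR, 3 of the 9 had an unadjusted p under 0.05, and DESeq2 also gave 0 adjusted calls. The comparisons share the control samples, so their values are set side by side and no agreement between them is drawn.

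The direct comparison of sample 2 with sample 1 does not use the level of the controls. All 9 genes were DOWN in sample 2, where 8.11% of all genes tested were, with a median log2 fold change of -1.11. Of these, 5 passed an adjusted p of 0.05 (*P2ry12*, *Cx3cr1*, *Csf1r*, *Siglech* and *Gpr34*), where 0.53% of all genes were lower at that threshold. The ratio of sample 2 to sample 1 was lowest in *Gpr34*, at 0.237 (exact 95% interval 0.197 to 0.283, counting error only), and highest in *Tmem119*, at 0.633 (0.570 to 0.703). *P2ry12* had a ratio of 0.410 (0.368 to 0.456), *Cx3cr1* 0.418 (0.391 to 0.448) and *Csf1r* 0.465 (0.441 to 0.490). All 9 genes were at least 1.5-fold lower in sample 2 than in sample 1, against 9.15% of all genes. Between the controls 0 of the 9 were at least 1.5-fold lower in control 2, against 4.22% of all genes, and the ratios of control 2 to control 1 ran from 0.890 in *P2ry13* to 1.25 in *Aif1*.

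**Figure D4:**
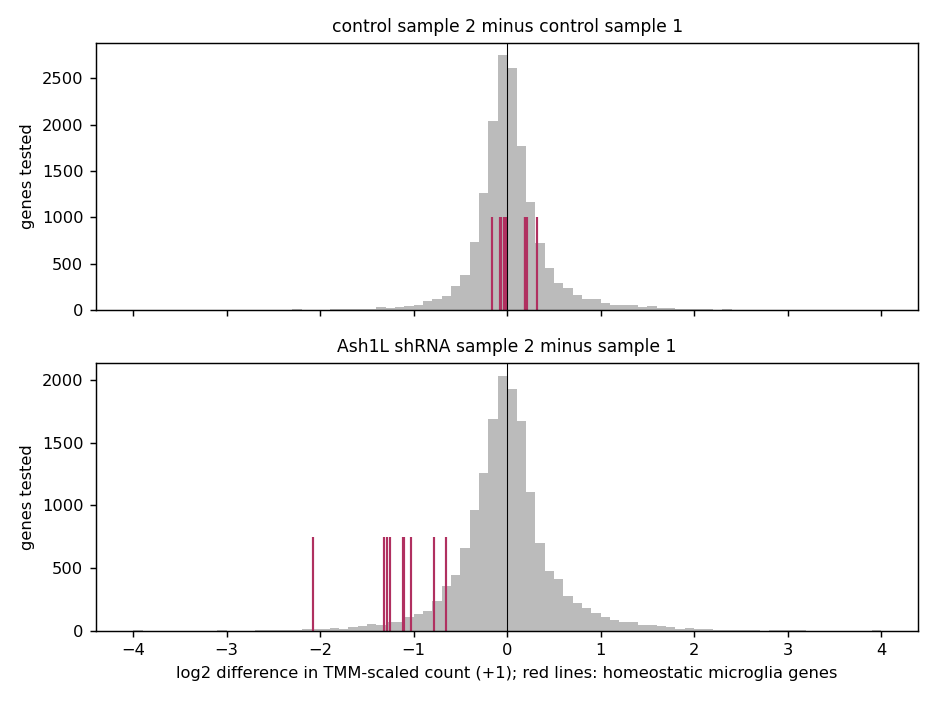
Histograms of the log2 difference between the controls (top) and between the *Ash1L* shRNA samples (bottom) over the genes tested, in bins of TMM-scaled counts with a pseudocount of 1, and red lines at the 9 homeostatic microglia genes. The red lines lie near 0 for the controls and between -2.08 and -0.66 for the shRNA samples.

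Genes that many myeloid cells share, called pan-myeloid here, were taken as a rough reference for myeloid RNA in each sample. They did not move together. In shRNA sample 1 they ran from 64.8% of the control mean in *Ptprc* to 298% in *Cd68*, genes named after their values were seen. Of 14 pan-myeloid genes, 0 were DOWN or UP in the comparison of groups. Their summed level was 651 and 735 CPM in the controls, 1052 CPM in shRNA sample 1 and 388 CPM in sample 2, and that of the 9 homeostatic genes was 472, 499, 536 and 241 CPM. Both sums were lowest in sample 2 and highest in sample 1. *C1qa*, a chain of the complement component that tags synapses, had 3531 and 3696 scaled counts in the controls and 5473 and 1872 in the shRNA samples. *Tyrobp*, the signalling adaptor of *Siglech* and other receptors, had 758 and 853 in the controls and 1615 and 431 in the shRNA samples. In sample 1 against the controls 8 of the 14 were UP (6.46% of all genes), and in sample 2 12 of the 14 were DOWN (16.5% of all genes), with median differences from the control mean of 0.62 and -0.82 on the log2 scale.

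The 9 homeostatic genes were also set against the median of these pan-myeloid genes within the same sample, as log2 values relative to the control mean. In sample 1, 7 of the 9 lay below both controls on this scale, with a median of -0.52, while *Aif1* lay between the controls. In sample 2, 4 of the 9 lay below both controls and 3 above both, and the median of -0.02 was between the control medians of 0.11 and -0.11. *P2ry12* was lower relative to the pan-myeloid median in both, by -0.60 in sample 1 and -0.44 in sample 2, and so was *Siglech*, by -0.85 and -0.71. *Csf1r* had relative values of -0.64 and -0.30. *Tmem119* and *Sall1* had negative relative values in sample 1, -0.63 and -0.52, and positive ones in sample 2, 0.16 and 0.15. *Gpr34* went the other way, at 0.13 in sample 1 and -0.49 in sample 2. These relative values depend on the genes of the pan-myeloid list and are descriptions without a test. No share over all genes was computed on this scale.

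A further 24 genes of the homeostatic microglia signature gave 0 DOWN and 2 UP genes in the comparison of groups, with a median log2 fold change of -0.19 that ran from -0.57 without shRNA sample 1 to 0.22 without shRNA sample 2. The count of UP genes was close to the 8.61% over all genes. They were *Golm1*, with a log2 fold change of 0.53 (SE 0.15, edgeR adjusted p = 0.255), and *Olfml3*, with 1.32 (SE 0.47, adjusted p = 0.273). *Ctss*, the lysosomal protease cathepsin S, had 5196 and 6907 scaled counts in the controls and 6392 and 2376 in the shRNA samples. It was lowest in sample 2, and *Lgmn*, another lysosomal protease, at 4589, 4884, 6571 and 4345, was lowest there by a small margin. Against the controls 13 of the 24 were DOWN in sample 2 with 1 UP, where 16.5% of all genes were DOWN and 14.2% UP. In sample 1, 6 were UP with 0 DOWN, where 6.46% of all genes were UP and 4.98% DOWN.

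Of 8 transcription factors of microglia and other myeloid cells, 0 were DOWN or UP in the comparison of groups. *Spi1*, which encodes PU.1, had 102 and 136 scaled counts in the controls and 171 and 64.6 in the shRNA samples. *Irf8*, its partner in myeloid gene regulation, had 352, 631, 519 and 241. In sample 2 against the controls *Spi1*, *Irf8* and *Ikzf1* were DOWN, none of them past an adjusted p of 0.05 in edgeR.

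Among 19 genes of activated microglia, 8 were UP and 1, *Cd74*, was DOWN in the comparison of groups, with a median log2 fold change of 1.02, against 8.61% UP and 8.28% DOWN of all genes. *Spp1*, which encodes osteopontin, was among the UP genes named after their values were seen, at 103 and 130 scaled counts in the controls and 418 and 464 in the shRNA samples (log2 fold change 1.90, SE 0.20, edgeR adjusted p = 0.207). *Gpnmb*, a glycoprotein of lysosome-rich macrophages, had 171 and 203 in the controls and 625 and 263 in the shRNA samples. *Itgax*, which encodes CD11c, had 169, 313, 897 and 92.7, above both controls in one shRNA sample and below both in the other. *Cd74*, the invariant chain of MHC class II that B cells also express, had 2954, 6316, 1244 and 723. That median was 0.41 with shrunken DESeq2 fold changes (betaPrior) and 0.21 without shRNA sample 1. In sample 1 against the controls 14 of the 19 were UP, against 6.46% of all genes. In sample 2, 6 were UP and 4 DOWN, against 14.2% and 16.5% of all genes. The median difference from the control mean was 1.74 on the log2 scale in sample 1 and 0.21 in sample 2.

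Genes of other blood-derived and border cells were also counted. Between groups, 8.28% of all genes tested were DOWN and 8.61% UP, and the border macrophage counts were close to these shares. Border macrophage genes summed to 56.8 and 67.7 CPM in the controls and 70.0 and 55.3 CPM in the shRNA samples, with 1 of 9 tested genes DOWN (*Mrc1*) and 1 UP (*Siglec1*) between groups. Of 12 genes of blood monocytes and neutrophils, 4 were tested and 3 of them were DOWN, and *Ly6c2*, a surface antigen of inflammatory monocytes, had 248 and 501 scaled counts in the controls and 38.2 and 30.5 in the shRNA samples. Of 10 lymphocyte genes, 9 were DOWN between groups. *Ly6c2* and the summed lymphocyte genes were thus low in both shRNA samples, whereas most of the 9 homeostatic genes in shRNA sample 1 were near or above the controls. How far blood cells contributed to the counts of the 9 genes was not tested.

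**Figure D5:**
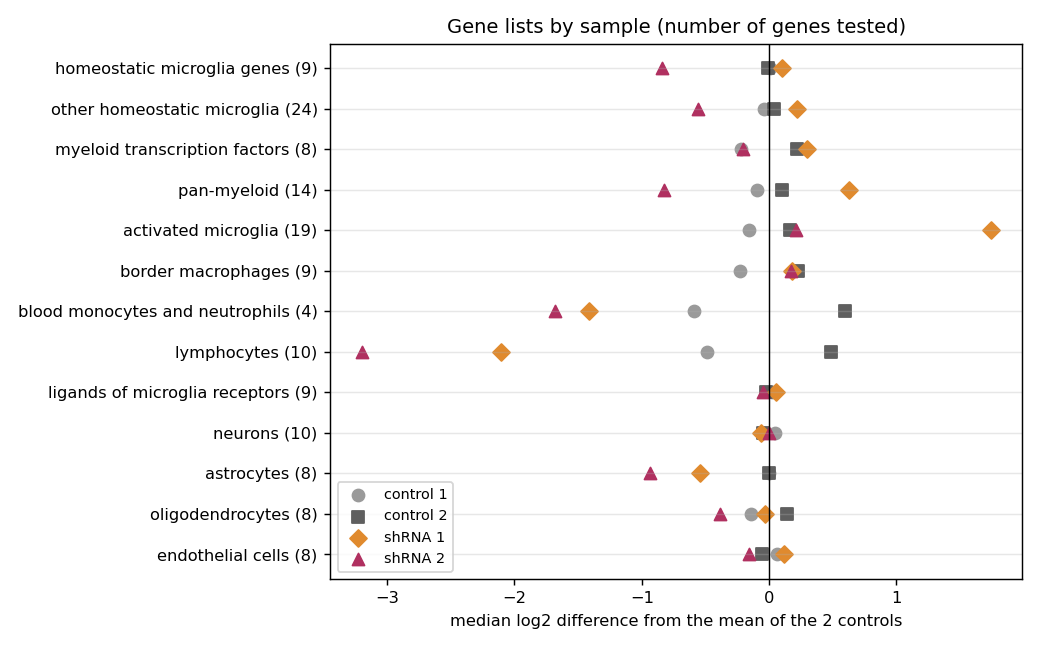
Median log2 difference from the mean of the 2 controls for 13 gene lists, with 1 symbol per sample and the number of genes tested in brackets. For homeostatic microglia genes sample 2 lies at -0.84 and sample 1 at 0.10, for activated microglia genes sample 1 lies at 1.74, and for lymphocyte genes shRNA samples 1 and 2 lie at -2.10 and -3.20.

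Ligands that act on the receptors above come from other cells. *Cx3cl1*, the neuronal ligand of *Cx3cr1*, was DOWN between groups, with 16312 and 15786 scaled counts in the controls and 13874 and 10749 in the shRNA samples (log2 fold change -0.38, edgeR adjusted p = 0.283). *Il34*, a neuronal ligand of *Csf1r*, was also DOWN, with 1191, 1413, 1037 and 809 (log2 fold change -0.50, adjusted p = 0.261). *Csf1*, the other ligand of *Csf1r*, had 605 and 694 in the controls and 886 and 628 in the shRNA samples and was neither DOWN nor UP. *Tgfb2* and *Tgfb3*, which encode TGF-beta ligands, were UP with log2 fold changes of 0.73 and 0.70 (edgeR adjusted p = 0.253 and 0.250). The third, *Tgfb1*, named after its values were seen, was neither DOWN nor UP (log2 fold change 0.17, adjusted p = 0.817). In total 2 of the 9 ligand genes were DOWN and 2 UP, where 8.28% and 8.61% of all genes were.

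The genes with the pattern most like the mean of the 9 were ranked by the Euclidean distance of log2 profiles over the 4 samples, among 14872 genes with a mean of at least 1 CPM. *Cd53*, a leukocyte tetraspanin, was closest at a distance of 0.0888, with 503 and 549 scaled counts in the controls and 576 and 255 in the shRNA samples. It was followed by *Naip2* (0.105), an inflammasome receptor, by *Tnfsf10* (0.113), which encodes the death ligand TRAIL, and by *Itgb5* (0.118), an integrin subunit of the homeostatic signature. *Tbata*, *Endou*, *Snx22* and *Pld4* came next, at distances of 0.142 to 0.150. With 4 samples such a rank is a description of likeness only.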

How the data were processed

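The authors deposited raw gene-level counts, made with STAR on mm10 and featureCounts. The labels instead describe Cutadapt and TopHat2, and the strand setting is not given in the sources used here. Genes were filtered with filterByExpr, scaled by TMM and tested with edgeR 4.0.16 (R 4.3.3; glmQLFit, robust) for *Ash1L* shRNA against control, adjusting p by Benjamini-Hochberg over 16232 genes. A second fit took each shRNA sample as its own level. A scaled count is the count divided by the effective library size relative to the mean of the 4 samples, and log2 differences use a pseudocount of 1. Standard errors are the fold change divided by the root of F. The script was tested on simulated data. Exon lengths came from GENCODE M21. Replicates are called pools here after the methods, although the design text gives other numbers of mice. A p-value of the group comparison sets the difference against the spread between replicates, not between single mice. For the second fit that spread comes from the controls alone.

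The 9 genes and the other lists were chosen with earlier results of these data known. Named genes are all 9, *Ash1l*, at most 6 per other list by mean count, the 8 closest patterns, and members of counts of 5 or fewer or genes that the text marks, chosen after their values were seen. Alternatives were DESeq2 1.42.0 with and without betaPrior, edgeR's likelihood ratio test, other scalings and filters, the replicate block, and leaving out each sample. The crossed block was added after seeing the data. A gene that the naming rule selects is not reported here.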

Additional observations from a re-analysis of the deposited data

How the results depend on the processing

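In the comparison of groups, 0 of the 9 genes were DOWN or UP under each alternative that kept all samples, with 1 exception. The numbers pair nothing known: no source says that same-numbered pools were handled together, and across genes their deviations from the mean of their group correlated at -0.105. With the replicate block 1020 genes were DOWN, 1052 were UP and 0 passed an adjusted p of 0.05, against 1344, 1397 and 1 without it, and *Gpr34* had a log2 fold change of -0.26. With the crossed block, added after seeing the data, 16 genes passed, *Siglech* alone of the 9 was DOWN and *Gpr34* had -0.21. Genes past the adjusted threshold numbered 421 with DESeq2, 406 with betaPrior, 479 with the likelihood ratio test and 34 without the filter. Leaving out 1 sample at a time gave 306 to 2718 DOWN and 423 to 2368 UP genes, 0 to 2502 past the adjusted threshold, and of the 9 genes 0 to 8 DOWN, 0 to 3 UP and 0 to 8 past it. The median of the 9 ran from -0.84 without shRNA sample 1 to 0.11 without shRNA sample 2, and from -0.29 to -0.17 otherwise. Leave-out ranges that crossed 0 were -1.33 to 0.75 in *Gpr34*, -0.48 to 0.55 in *Aif1*, -1.27 to 0.027 in *P2ry12*, -0.79 to 0.33 in *P2ry13*, -0.84 to 0.42 in *Cx3cr1* and -0.68 to 0.11 in *Sall1*. For shRNA sample 2 against the controls 5 of the 9 passed the adjusted threshold with DESeq2 instead of 8, and 7 did with each other scaling and with at least 10 counts in every sample. For sample 1 against the controls 1 passed with the likelihood ratio test and 1 without the filter. For sample 2 against sample 1, 8 passed with the likelihood ratio test and 9 without the filter, instead of 5, and 4 with at least 10 counts in every sample. The median of the activated microglia genes ran from 0.41 to 1.14 with all samples and from 0.21 to 1.698 with 1 left out. The cause of these changes was not tested. Scalings moved the median of all genes by at most 0.04. With 2 pools a group and 1 pool behind each single-sample contrast, the difference between the shRNA samples and variation among pools cannot be told apart.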
